A study of Mus musculus with 6 samples.

Results

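The miR-216 and miR-217 cluster is a group of 3 microRNA (miRNA) genes on mouse chromosome 11, mir-216a, mir-216b and mir-217, picked by name from the 898 miRNA genes of the deposited small-RNA table. They were chosen because their group means in that table were near 0 in embryonic stem cells (ESCs) and higher in neuronal cells (NCs), so the difference between the groups is given as a description, with no test. All 3 were in the table, and reads of single libraries could be recovered for all 3. The cells were E14Tg2a mouse ESCs at passages 37 to 40, grown either with leukemia inhibitory factor (LIF) as pluripotent ESCs (3 libraries), or kept for 48 hours in 1 µM retinoic acid (RA) with LIF removed, as NCs (3 libraries). LIF withdrawal and RA came together in every NC library, so their parts cannot be told apart. Both groups come from the same line, and no other line was measured. These are bulk RNA samples, in which fewer cells of a type and less RNA per cell cannot be told apart.

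A miRNA gene is transcribed as part of a longer RNA, from which a hairpin is cut out and then trimmed to a mature strand of the 5′ or 3′ arm. The mature strand guides Argonaute proteins to messenger RNAs, mainly through its seed, bases 2 to 8 counted from its 5′ end. The miR-216 and miR-217 genes are best known from the exocrine pancreas, where acinar cells hold large amounts of them, and RA is a signal that patterns both the hindbrain and the foregut endoderm.

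The mature sequences show how the members relate to each other. They are from RefSeq on GRCm38.p6, are written 5′ to 3′, and have the seed in capitals.
miR-216b-5p: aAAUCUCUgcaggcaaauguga
miR-216a-5p: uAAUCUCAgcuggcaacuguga
miR-217-5p: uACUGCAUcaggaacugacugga
miR-216b-3p: aCACUUACcuguagagauucuu
miR-216a-3p: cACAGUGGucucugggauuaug
miR-217-3p: cAUCAGUUccuaaugcauugccu

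The 5′ arms of miR-216b and miR-216a were identical at 18 of 22 positions. Counted from the 5′ end, with the miR-216b base first, they differed by A1U, U8A, A11U and A17C. Of these, U8A lies in the seed, so the pair shared bases 2 to 7 and not base 8. No other mouse gene in the RefSeq table carried the bases 2 to 7 of this pair at the same positions of a mature strand. The 5′ arm of miR-217 matched that of miR-216b at 6 of 22 positions, and 0 other genes shared its seed. By bases 2 to 8 the 3 members thus have 3 different 5′ seeds, and by bases 2 to 7 the miR-216 pair shares one. For the 3′ arms, 0 other genes in the table shared bases 2 to 7 with any member.

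The hairpins are shown because the deposited table gives a single value per gene, with no split by arm. Whether reads of both arms were counted is not given in the sources used here. The mature arms of the hairpins are in capitals.
mir-216b: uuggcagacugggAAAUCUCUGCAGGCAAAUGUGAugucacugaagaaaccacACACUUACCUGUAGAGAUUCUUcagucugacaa
mir-216a: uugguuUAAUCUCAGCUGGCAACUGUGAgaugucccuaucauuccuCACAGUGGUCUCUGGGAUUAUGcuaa
mir-217: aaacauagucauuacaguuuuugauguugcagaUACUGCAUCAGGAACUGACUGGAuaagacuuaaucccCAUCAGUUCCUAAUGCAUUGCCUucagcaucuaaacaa

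The longest run of bases shared by any 2 of these hairpins was 6 bases, shorter than any mature strand of the cluster. In the annotation, another gene, Mir216c, lies on the minus strand at 28746198 to 28746266, inside mir-216b. Whether the counting used the strand is not given in the sources used here, so reads of mir-216b and Mir216c cannot be told apart with certainty. Mir216c itself was not analysed here.

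All 3 members lie on the plus strand of chromosome 11, in the order mir-216b (chr11:28746191-28746276), mir-216a (chr11:28757012-28757083) and mir-217 (chr11:28763728-28763835), on build GRCm38. Together they span 17645 bases. mir-216a starts 10821 bases after mir-216b, and mir-217 starts 6716 bases after mir-216a. In GENCODE M21, mir-216a and mir-217 lie in introns of Gm12082, a long intergenic noncoding RNA on the same strand (28751633 to 28815767), and mir-216b overlaps no transcript other than Mir216c. In RefSeq, mir-216b falls within the span of Mir217hg (28730633 to 28751781), annotated as the host gene of mir-217, although this span ends before mir-216a and mir-217. The nearest protein-coding genes were Ccdc85a, 161867 bases before the cluster, and Efemp1, 89369 bases after it.

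**Figure D1:**
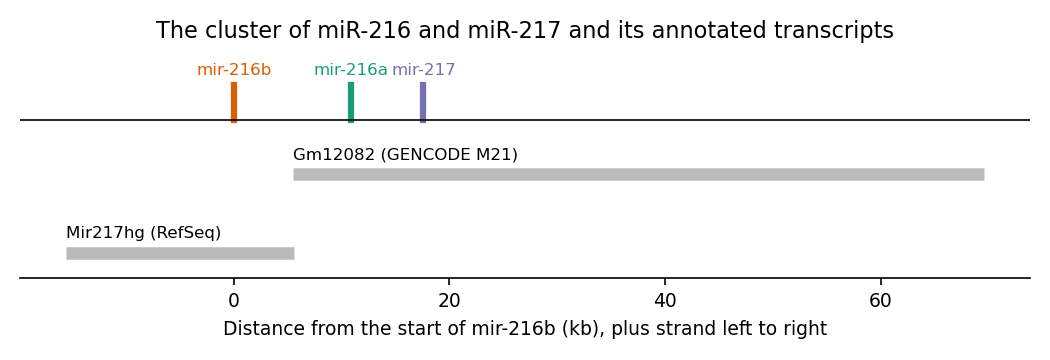
Position of the 3 hairpins (coloured ticks) and of the 2 annotated noncoding transcripts (grey bars), as distance in kilobases from the start of mir-216b. mir-216b falls in the span of Mir217hg and the other two in that of Gm12082; the grey bars overlap by a short stretch.

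The values are normalized counts, that is, reads per gene over the size factor of the library they came from, and the deposited table holds their mean per group. Within a group the library with the largest size factor is called A, the next B and the smallest C. The resolved reads ranged from 140690 to 537516 per library, but they left out the most abundant miRNAs and accounted for 21.3% (ESCs) and 15.0% (NCs) of all signal, so these totals are not the depth. The size factors differed by up to 4.21-fold. Library C stood apart in both groups. Over 240 miRNAs with a mean of at least 20 in both groups, the log2 difference between C and the other two had an SD across miRNAs of 1.30 (ESCs) and 1.18 (NCs). Between A and B this SD was 0.30 in ESCs and 0.23 in NCs. Across these 240 miRNAs the departure of C in ESCs correlated with that in NCs (Pearson's r = 0.82, Spearman's rho = 0.89), a description over miRNAs of the same libraries. ESC miRNAs separated the groups by label: of the 12 members of the miR-290 to miR-295 and miR-302/367 clusters, 7 could be tested and 7 fell in NCs (limma-voom, adjusted p under 0.05, a call that 5.86% of the 324 miRNAs tested had in this direction). Library C is therefore given with and without where it moves a value.

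In ESCs the cluster was barely detected. mir-216a had 0 reads in each of libraries A, B and C. mir-216b had 1, 0 and 1 reads, and mir-217 had 2, 1 and 0 reads. The 3 ESC libraries thus held 5 reads of the cluster in all. A library that shows 0 reads may still have had up to 3, which corresponds to a mean of 3.51 normalized counts in ESCs, and every ESC value of the 3 members lay at or under 3 reads. Where a library shows 0 reads, a level below this floor cannot be told from absence. Intervals and limits of this kind cover counting error and not the spread between cultures.

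In NCs every library held reads of every member. mir-217 had 206, 107 and 91 reads in NC libraries A, B and C, or 89.3, 110 and 156 normalized counts. mir-216b had 141, 66 and 75 reads, or 61.1, 67.6 and 128 normalized counts. mir-216a had 50, 20 and 15 reads, or 21.7, 20.5 and 25.6 normalized counts. For each of the 3 members the lowest NC library lay above the highest ESC library, so the groups did not overlap. Among all 329 resolved miRNAs that reached a mean of 10 normalized counts in a group, 56 (17.0%) had every NC library above every ESC library. Since the members were chosen for this difference, nothing is read from their count.

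**Figure D2:**
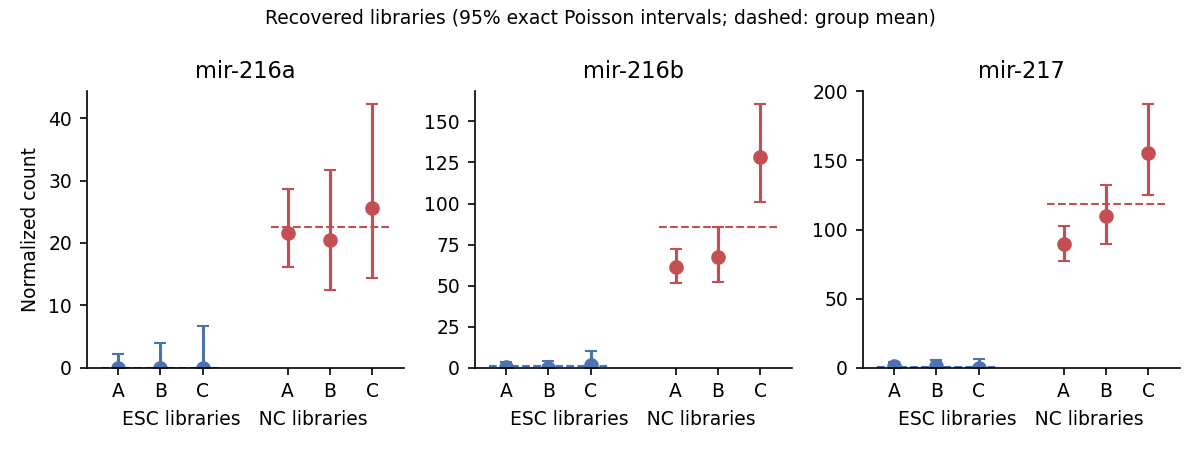
Normalized counts of each member (one panel each, with its own vertical axis) in the recovered ESC (blue) and NC (red) libraries A to C, with 95% exact Poisson intervals and dashed group means. The ESC libraries sit at or near 0; NC library C is the highest for all 3 members, by the most for mir-216b (128 against 61.1 and 67.6).

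The mean of mir-217 was 0.767 normalized counts in ESCs and 118 ± 34.0 (SD, n = 3) in NCs. For mir-216b the means were 0.814 and 85.6 ± 37.0 (SD, n = 3), and for mir-216a they were 0 and 22.6 ± 2.71 (SD, n = 3). For mir-216a, with all ESC libraries at 0, the NC mean was 6.44-fold the floor of 3 reads in each ESC library. From its pooled reads per unit of size factor, the lower end of the 95% interval from counting was 18.1-fold, with no upper end. For mir-216b, with 2 ESC reads, the ratio of the pooled reads per unit of size factor was 113, with a 95% interval from counting of 31.1 to 940. For mir-217, with 3 ESC reads, this ratio was 108, with an interval of 36.7 to 527. Set against the same floor of 3 reads in each ESC library, the NC means were 24.4-fold for mir-216b and 33.7-fold for mir-217. Summed over the cluster, the 6 libraries held 5 reads in ESCs and 771 in NCs, and the NC sum was 64.5-fold the floor. The width of these intervals comes from the ESC side, where a single read moves the ratio.

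The fold depended on the scaling between the groups. mir-10a, a Hox-cluster miRNA, had the highest mean in NCs, 754551 against 2136 in ESCs. With both groups scaled to the same summed mean, the folds over the floor were 4.63 for mir-216a, 17.5 for mir-216b and 24.2 for mir-217. With mir-10a left out of the totals they were 8.73, 33.1 and 45.6. All 3 were above the floor in NCs under both scalings. Without ESC library C, which sets most of the floor, the NC mean of mir-216a was 8.95-fold the floor, and without ESC library A it was 5.21-fold.

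**Figure D3:**
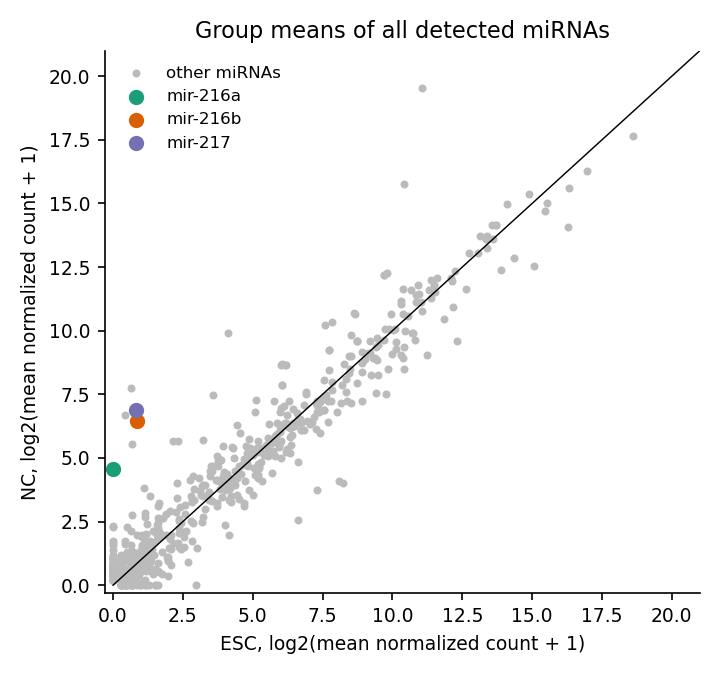
Mean normalized counts in ESCs (horizontal) and NCs (vertical) of the 634 detected miRNAs, both as log2(mean + 1), with the line of equality. The 3 members lie at the left edge, at ESC means from 0 to 0.814 and NC means from 22.6 to 118.

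By rank in NCs, mir-217 and mir-216b lay above the middle of the detected miRNAs and mir-216a near it. mir-217 ranked 152nd, mir-216b 167th and mir-216a 275th of 602 miRNAs detected in NCs by mean. Together they made up 141 per 1000000 normalized counts in NCs and 1.37 per 1000000 in ESCs. Their mature strands are 22 bases long for mir-216a and mir-216b and 23 for mir-217. Per mature base the NC level was 5.14 normalized counts for mir-217, 3.89 for mir-216b and 1.03 for mir-216a, in the same order as the counts. With lengths this alike the division could not change the order, so it is no check of it.

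The order of the members was the same in all 3 NC libraries, mir-217 above mir-216b above mir-216a. This ratio within a library was not used to choose them and does not depend on the size factors. mir-217 had 1.46 times the reads of mir-216b in library A (95% exact binomial interval 1.17 to 1.82) and 1.62 times in B (1.18 to 2.24). In library C the ratio was 1.21 (0.884 to 1.67), an interval that includes equal levels. The reads of mir-217 and mir-216b, next to each other in this order of levels though not on the chromosome, thus differed beyond counting error in A and B and not in C. mir-216b had 2.82 (2.03 to 3.98), 3.30 (1.98 to 5.75) and 5.0 (2.85 to 9.37) times the reads of mir-216a in A, B and C, so mir-216a was lower in every library.

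As shares of the cluster's reads, mir-217 held 51.9%, 55.4% and 50.3% in NC libraries A, B and C. mir-216b held 35.5%, 34.2% and 41.4%, and mir-216a held 12.6%, 10.4% and 8.29%. The 95% Clopper-Pearson intervals of the 3 libraries overlapped for each member. For mir-216a, for example, they ran from 9.49% to 16.3% in A and from 4.71% to 13.3% in C. The sizes of the shares within the cluster were thus alike across the libraries within counting error, which does not show that they were equal.

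**Figure D4:**
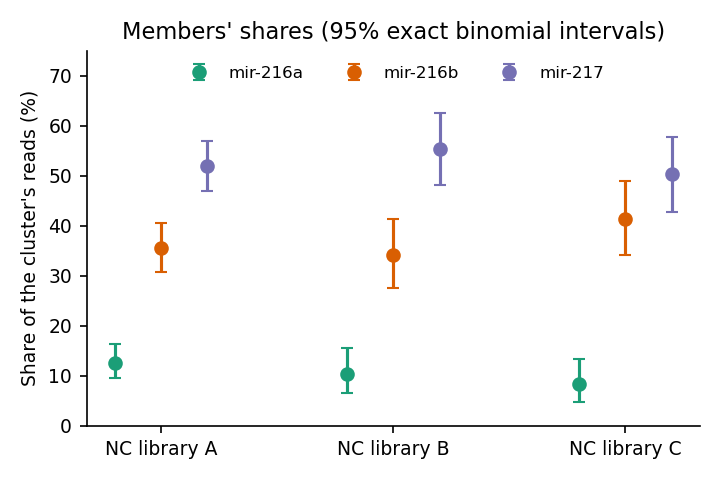
Share (%) of each member in the cluster's reads in NC libraries A, B and C, with 95% exact binomial (Clopper-Pearson) intervals. mir-217 has the largest and mir-216a the smallest share in each library; the intervals of mir-217 and mir-216b overlap in library C.

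The level of the whole cluster did vary with the library. The summed normalized counts were 172 in NC library A, 198 in B and 309 in C. The interval of C (266 to 358) did not overlap those of A (156 to 190) and B (171 to 228). Library C lay above A and B by 0.99 on the log2 scale for mir-216b, by 0.65 for mir-217 and by 0.27 for mir-216a, with a pseudocount of 1. Among 266 miRNAs with an NC mean of at least 20, this difference ran from -2.20 at the 5th percentile to 1.55 at the 95th, so the members lay inside the range by which library C departed in general. A and B differed by 0.08, -0.14 and -0.29 on the log2 scale for mir-216a, mir-216b and mir-217. Without library C of both groups the folds over the floor were 8.35 for mir-216a, 25.5 for mir-216b and 39.4 for mir-217.

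Few other miRNAs had such a level in both groups. Of 618 resolved miRNAs, 238 had at most 3 reads in every ESC library, and 6 of these had an NC mean of at least that of mir-216a: the 3 members and 3 others. The others were mir-219a-2, a miRNA of oligodendrocytes and the nervous system, mir-615, which lies in the Hoxc cluster, and mir-1251, from an intron of the neural noncoding gene Rmst. The other miR-219a gene, mir-219a-1, had means of 10.7 in ESCs and 21.3 in NCs. The value of mir-219a-2 alone is thus not the level of miR-219a. Just below mir-216a, at 22.6, the next was mir-214 with an NC mean of 10.3, which left a gap. In the other direction, 212 miRNAs had at most 3 reads in every NC library, and 0 of them had an ESC mean of 22.6 or more. The cut-off was the NC mean of mir-216a itself, and the members were chosen for such levels. Their place among the 6 was thus fixed, and the counts depend on this cut-off.

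The place of NC library C was not alike among these 6, and its differences between miRNAs were not tested. mir-219a-2 had 276 and 305 normalized counts in NC libraries A and B and 61.6 in C. mir-615 had 95.4, 108 and 106, and mir-1251 had 50.3, 50.2 and 37.6, the last from 22 reads. Library C was thus 0.212 times the mean of A and B for mir-219a-2, 1.05 times for mir-615 and 0.749 times for mir-1251. For the members it was 1.99 times for mir-216b, 1.56 times for mir-217 and 1.22 times for mir-216a. The interval of mir-216a in library C (14.4 to 42.3) included its values in A and B, so C did not stand apart from them there beyond counting error, and mir-615 was near equal in the 3 libraries.

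**Figure D5:**
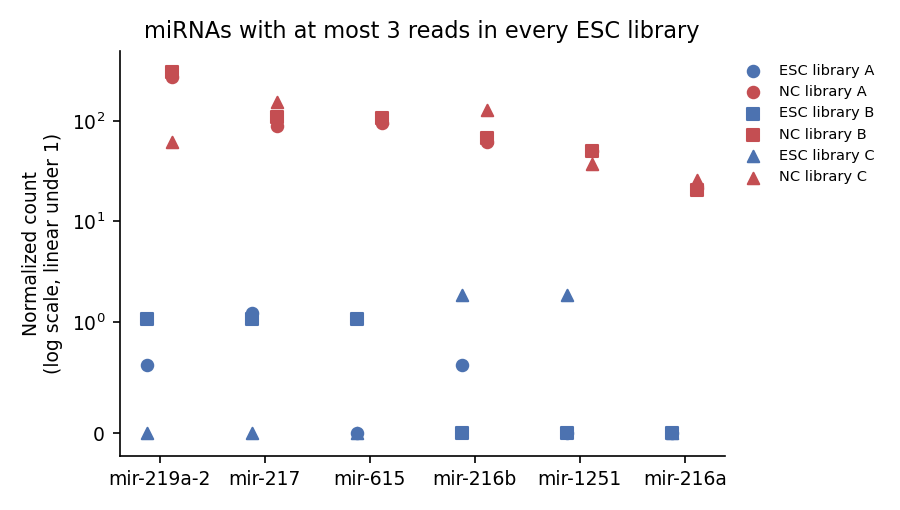
Normalized counts (log scale above 1, linear below) in each library of the 6 miRNAs with the highest NC mean among those with at most 3 reads in every ESC library; blue is ESC, red is NC, and the marker gives the library. NC library C (triangles) lies above A and B for mir-217, mir-216b and mir-216a, and below them for mir-219a-2 and mir-1251. In library C, mir-216a rests on 15 reads and mir-1251 on 22, and these differences were not tested.

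The miRNAs most like the mean profile of the cluster over the 6 libraries were sought by Pearson's correlation on log2(normalized count + 1) among 326 others with a mean of at least 10 in a group. They were mir-99a (r = 0.996), mir-138-2 (0.992), mir-138-1 (0.991), mir-615 (0.988), mir-412 (0.985) and let-7c-1 (0.982). Between members r was 0.992 for mir-216a and mir-217, 0.985 for mir-216a and mir-216b, and 0.965 for mir-216b and mir-217. With 3 libraries in each of 2 groups, such an r rests mostly on the gap between the groups, and 11 of the 326 reached 0.95. The miRNAs alike in profile differed in level. mir-99a had 12.8 to 18.5 normalized counts in ESC libraries and 934 to 1019 in NC libraries, whereas mir-412 had 12.8 to 16.4 and 35.5 to 47.9. The gene copies mir-138-1 and mir-138-2 yield the same mature strand, so their separate values are uncertain.

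The cluster was set beside 9 other miRNAs known from the pancreas. The list held the islet miRNA mir-375, the miR-7 genes, mir-148a, mir-153, mir-184, mir-204 and mir-802. mir-375, the most characteristic of them, had 0 reads in all 6 libraries, as had mir-153. How reads of each hairpin arm were counted is not given, so a value of 0 here does not show absence. mir-802 had 1 read in NC library B and 0 in every other library, and mir-184 had 1 read, in NC library A. mir-7b had at most 3 reads in an ESC library and at most 3 in an NC library. A fit across all resolved miRNAs with enough reads (limma-voom, Benjamini-Hochberg adjustment) called 51 of 324 (15.7%) at an adjusted p under 0.05, 32 higher (9.88%) and 19 lower (5.86%) in NCs. Of the 4 pancreas miRNAs tested, 0 were called by limma-voom, 0 had an unadjusted p under 0.05, and limma-trend also called 0. Limma-trend called 9.57% of all miRNAs tested higher and 5.56% lower. The median log2 fold change of the 4 in limma-voom was -0.24, against -0.05 over all miRNAs tested.

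The most abundant of the list was mir-148a, which is found in acinar cells and in many other tissues. Its normalized counts were 1341, 1038 and 928 in ESC libraries and 1249, 1372 and 576 in NC libraries (log2 fold change -0.14, SE 0.40, adjusted p = 0.890 in limma-voom). The groups overlapped. mir-204 had 15.4, 5.33 and 20.1 in ESC libraries and 23.0, 24.6 and 41.0 in NC libraries (log2 fold change 1.12, SE 0.51, adjusted p = 0.224 in limma-voom). It passed without library C of both groups (adjusted p = 0.0272 in limma-voom), a fit in which 168 of 332 miRNAs were called (50.6%), 29.2% higher and 21.4% lower. In that fit mir-7a-1 and mir-7a-2 were lower in NCs (log2 fold changes -0.69 and -0.69). Their NC means were 67.3 and 68.2, against 105 and 105 in ESCs. The 2 genes also had nearly the same reads in single libraries, such as 225 and 228 in NC library A. They are thus not separate results, here or among the pancreas miRNAs tested.

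Markers of other cell types were given beside the cluster for the same libraries, and their part in its level was not tested. Of the 5 liver and gut endoderm miRNAs, 4 were tested, and 0 were called by limma-voom or limma-trend or had an unadjusted p under 0.05. mir-122, the defining liver miRNA, had 2 reads in ESC library A and 0 in all other libraries. mir-192, the highest of this list, had a mean of 2133 in ESCs and 1758 in NCs. The summed level of the list ranged from 1014 to 3008 normalized counts in ESC libraries and from 662 to 2474 in NC libraries. Of the 6 muscle miRNAs listed, from the miR-1a, miR-133 and miR-206 genes, the 5 in the table were at 0 in both groups. With the counting of each hairpin arm not given, these values of 0 do not show absence. Muscle miRNAs outside the list were not all at 0: mir-499 had a mean of 17.8 in ESCs and 10.2 in NCs, mir-208a 0.205 and 1.28, and mir-1b 0 and 1.06. The table held 4 blood miRNAs, of which 2 were tested, and 0 were called or had an unadjusted p under 0.05 in limma-voom, and limma-trend called 0. mir-150, the highest of these, had a mean of 5114 in ESCs and 776 in NCs, with 13159 in ESC library C against 1154 and 1028 in A and B. The 2 tested, mir-150 and mir-142, were called lower in NCs without library C of both groups, a fit that called 21.4% of all miRNAs tested lower, and also with the order of the library as a covariate, where 19.8% were lower. The summed level of the blood list was 2243 to 13499 normalized counts in ESC libraries and 859 to 1659 in NC libraries.

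Of the 6 neural miRNA genes, the 3 mir-9 genes were tested. Their log2 fold changes were 0.89, 0.90 and 0.90 (SE 0.28, 0.27 and 0.28, adjusted p = 0.0788 for each in limma-voom), so 0 were called, 3 had an unadjusted p under 0.05, and limma-trend called 0. The mir-9 genes yield one mature sequence, so these are not separate results. Without library C of both groups all 3 rose, where 29.2% of all miRNAs tested were called higher. They also rose with the order of the library as a covariate (adjusted p = 0.00800 to 0.00931 in limma-voom), where 21.3% were called higher. The mir-124 genes, a defining set of neurons, had means of 2.09 to 2.70 in ESCs and 5.19 to 6.02 in NCs, below each member of the cluster in NCs. Whether reads of both hairpin arms were counted is not given, so levels of different genes may not be comparable. The summed level of the neural list was 1078 to 1488 normalized counts in ESC libraries and 2023 to 2859 in NC libraries. The summed level of the 9 resolved ESC miRNAs was 3139 to 4158 in ESC libraries and 641 to 946 in NC libraries, and the 7 tested fell, among them mir-302a (log2 fold change -4.23, SE 0.32, adjusted p = 0.000473 in limma-voom). Limma-trend called 6 of the 7, without mir-291b, whose adjusted p was 0.0459 in limma-voom and 0.0828 in limma-trend.

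Other miRNAs of chromosome 11 gave the surroundings of the cluster. Of 67 others of this chromosome in the table, 0 lay within 1000000 bases of it and 44 were detected. The nearest detected on each side were mir-1933, 7402 kb before, with means of 0.356 in ESCs and 1.02 in NCs, and mir-218-2, 6853 kb after. mir-218-2, a motor neuron miRNA, had 80.1, 102 and 12.8 normalized counts in ESC libraries and 305, 284 and 104 in NC libraries (log2 fold change 1.77, SE 0.75, adjusted p = 0.198 in limma-voom). With the order of the library as a covariate its log2 fold change was 1.85 (adjusted p = 0.000184 in limma-voom). Its mature strand is also made by a gene on another chromosome, so its separate value is uncertain. Of the 16 others on the chromosome that were tested, 0 were called by limma-voom, 2 had an unadjusted p under 0.05, and limma-trend called 0. With the covariate 6 were higher and 4 lower, in a fit that called 133 of all 324 (41.0%), 21.3% higher and 19.8% lower. Without the covariate the median log2 fold change of the 16 was 0.58, against -0.05 over all miRNAs tested. mir-10a, 67553 kb after the cluster, was not resolved in NCs and could not be tested.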

How the data were processed

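The small-RNA libraries, 3 of ESCs and 3 of NCs, were grouped by their labels. Per the labels, the submitters' processing notes name DESeq and mm10; the aligner, adapter removal and counting rules are not given in the sources used here. The authors deposited one signal table of group means, in normalized counts; its columns of fold change, p-value and adjusted p-value are the authors' comparison and were not used. Whole reads per library were found by enumerating the 3 steps that sum to each mean, within 3e-10, for 537 of the 549 miRNAs detected in ESCs and 588 of the 602 detected in NCs. On simulated data 501 of 512 and 548 of 563 were resolved, and 501 and 548 were right. Recovered libraries were matched to no labelled replicate. limma 3.58.1 (R 4.3.3) with voom weights, recovered size factors and Benjamini-Hochberg adjustment was run on miRNAs that reached 10 reads in at least 3 libraries (in at least 2 once a group was cut to 2). For 200 of 618 simulated miRNAs changed 4-fold, 103 passed the filter, 103 were called, and 6 calls were false. The simulation gave all libraries the same spread, with none that departs as library C does. These numbers are thus no error rates for the real libraries. That the cultures were separate rests on the labels; otherwise p-values measure technical spread. Named miRNAs were the members, called or highest list members, the 6 most alike, the 6 highest in NCs among those with at most 3 reads in each ESC library, and the nearest detected neighbours. mir-153, mir-184, mir-802, mir-7a-1, mir-7a-2, mir-7b, mir-122, mir-124, mir-142, mir-214, mir-219a-1, mir-499, mir-208a, mir-1b and mir-10a were named after their values were seen. The members and lists were chosen with earlier results of these data known. Sequences were from RefSeq (GRCm38.p6), where 745 of 898 symbols matched, and positions from GENCODE M21. Python 3.11.15, numpy 2.4.6, pandas 2.3.3, scipy 1.17.1 and matplotlib 3.10.9 were used.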

Additional observations from a re-analysis of the deposited data

How the results depend on the processing

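No paired analysis was possible because the columns carry no replicate numbers. The covariate fit pairs the libraries of the groups by their order of size factor, which no label gives. The 3 members were higher in NCs under every alternative tried, a direction that their choice fixes. Removing library C of both groups was an alternative added after the data were seen. With a pseudocount of 1 in place of the floor, the folds were 23.6 for mir-216a, 47.8 for mir-216b, 67.4 for mir-217 and 88.1 for the sum. At equal summed means the fold of mir-216a was 4.63, and at equal summed means without mir-10a the folds were 8.73 for mir-216a, 45.6 for mir-217 and 87.5 for the sum. Without library C of both groups that of mir-216a was 8.35. Leaving out single libraries gave 5.21 to 8.95 for mir-216a, 18.3 to 33.9 for mir-216b, 27.2 to 46.8 for mir-217 and 52.2 to 89.7 for the sum. Shares within the cluster then moved by less than their spread between libraries. The number of miRNAs at or under the ESC limit whose NC mean reached that of mir-216a was 5 with at most 1 read and 8 with at most 10 reads, against 6 with at most 3.

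Limma-voom called 31 miRNAs with at least 10 reads in every library, where fewer were tested, 133 with the order of the library as a covariate, and 168 without library C of both groups. Leaving out single libraries gave 17 to 57 calls, 17 without library A and 19 without library B of the ESCs, and 29 without library A and 22 without library B of the NCs; the cause was not tested. With the covariate, 2 pancreas miRNAs (lower), 3 neural (higher) and 2 blood miRNAs (lower) were called. That fit called 21.3% of all miRNAs tested higher and 19.8% lower. The 2 pancreas miRNAs were mir-7a-1 and mir-7a-2 and the 3 neural were the mir-9 genes, so these counts are not of separate results. Without library C of both groups, 1 pancreas miRNA was called higher and 2 lower, 3 neural were called higher and 2 blood miRNAs lower. That fit called 29.2% of all miRNAs tested higher and 21.4% lower. ESC miRNAs called lower were 3 with at least 10 reads in every library, where 13 of 233 miRNAs were called lower. They were 5 to 8 when single libraries were left out, where 6 to 21 of 326 to 337 miRNAs were called lower. mir-291b missed the threshold without the filter (adjusted p = 0.0717 in limma-voom) and with at least 10 reads in every library (0.0565).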
